A study of Mus musculus with 7 samples.

Results

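Mycl and 9 other genes of mouse chromosome 4 were followed across the tumors of 4 mice. The genes are Ppt1, Cap1, Mycl, Trit1, Bmp8b, Ppie, Pabpc4, Macf1 and Rhbdl2, which lie in this order with other genes between them, and Gm12940, a long noncoding RNA gene 4.04 Mb beyond Mycl. They were matched by gene symbol, and all 10 were found among the 56941 genes of each of the 4 count matrices. The genes were selected on their levels in RPC against RP tumors, so that comparison is given here as a description, without a test. The levels in clusters of nuclei within one animal were not part of the selection. Co-detection in single nuclei was set as a readout together with the genes, and is a description as well. Genes chosen as scarce in RPC also leave few RPC nuclei in which co-detection can be seen. All these values come from the same nuclei, and nuclei of one animal are not replicates.

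Mycl is 1 of the 3 MYC genes of mammals, next to Myc and Mycn. MYC proteins bind DNA as partners of Max and raise the transcription of genes for growth, ribosome production and metabolism, while the Mxd proteins and Mnt compete for Max. In human small cell lung cancer MYCL is the MYC gene most often amplified, and in mouse models with loss of Rb1 and Trp53 the Mycl region is known to gain copies in part of the tumors. The neighbours have unrelated roles. Ppt1 removes fatty acids from proteins in the lysosome, Cap1 turns over actin filaments, Trit1 modifies transfer RNA, and Bmp8b is a secreted growth factor of the bone morphogenetic protein family. Ppie is a prolyl isomerase of the spliceosome, Pabpc4 binds the poly(A) tail of messenger RNA, Macf1 links microtubules to actin, and Rhbdl2 is a protease of the cell membrane.

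Single nuclei were taken from fresh-frozen lung tumors of male mice at the end of the disease. The 2 RP animals (RP1, RP2) were Rb1 fl/fl, Trp53 fl/fl. The 2 RPC animals (RPC1, RPC2) carried the same alleles and lacked Casp8, the gene of a protease of cell death; the labels write this as Casp8-/-, while the methods describe a conditional allele. In all 4 animals Cre came from an inhaled adenovirus with the CMV promoter, which is not limited to one lung cell type, and the ages of these 4 animals are not given in the labels. All 4 animals were barcoded together in 7 sublibraries, in wells that each held 1 animal, so the animal was the replicate (n = 2 per genotype).

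The matrices held 8413 to 10865 nuclei and 32299909 to 72446861 transcripts per animal, and no barcode was shared between animals. A cluster was named tumor-like if the markers of no other cell type stood out in it. Neuroendocrine markers set only a floor, the middle level of the clusters named for other cell types. The tumor-like clusters held 7087 nuclei of RP1 and 7176 of RP2 and, in RPC1 and RPC2, 9169 and 8569. All 282 genes within 5 Mb of Mycl, the 10 genes among them, were kept out of the clustering. Casp8 did not check the genotype, with 58.9, 61.0, 88.8 and 66.4 CPM (counts of a gene per 1000000 counts of the summed tumor-like nuclei of an animal) in the order RP1, RP2, RPC1, RPC2. The position of the deleted part was not given in the sources used here. Across genotypes, the quasi-likelihood test of edgeR called 0 of 20080 genes (smallest adjusted p = 0.161); before adjustment, p was under 0.05 for 3053 genes, and 636 were called by DESeq2.

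On the GRCm39 assembly, Ppt1 spans 122730010 to 122754948 of chromosome 4 on the plus strand, and Cap1 (122752832 to 122779903) runs against it with 2117 shared bases. Mycl (ENSMUSG00000028654) spans 122889408 to 122896282, and Trit1 starts 20.9 kb beyond its start. Bmp8b (122998923 to 123025892) and Ppie (123017508 to 123033786) overlap on opposite strands by 8385 bases. Pabpc4 starts 267 kb, Macf1 354 kb and Rhbdl2 792 kb from the start of Mycl. Bmp8b has a close paralog in Bmp8a, 314 kb from Mycl, so reads could have been divided between these genes. Gm12940 overlaps Zmym1 on the opposite strand and Sfpq on its own strand.

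The bases before the starts of 4 of these genes are shown, to set Mycl and 2 neighbours that differed several-fold between the genotypes (Cap1, Pabpc4) beside a neighbour that did not (Rhbdl2). Each is the 250 bases before the start of the canonical transcript in the GENCODE annotation of GRCm39, 5′ to 3′ on the strand of the gene, with every match to CCAAT or GGGCGG, on either strand, in capitals.
Cap1, chr4:122779854-122780103, minus strand: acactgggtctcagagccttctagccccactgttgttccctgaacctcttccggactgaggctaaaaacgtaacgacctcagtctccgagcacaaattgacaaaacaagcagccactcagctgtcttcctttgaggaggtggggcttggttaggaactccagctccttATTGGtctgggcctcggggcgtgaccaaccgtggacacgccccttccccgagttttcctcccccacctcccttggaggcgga
Mycl, chr4:122889158-122889407, plus strand: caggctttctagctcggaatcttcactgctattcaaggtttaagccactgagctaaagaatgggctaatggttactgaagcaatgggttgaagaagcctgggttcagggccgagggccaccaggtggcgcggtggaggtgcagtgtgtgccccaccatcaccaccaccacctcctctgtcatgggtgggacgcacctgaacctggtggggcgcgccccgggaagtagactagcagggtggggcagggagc
Pabpc4, chr4:123176211-123176460, plus strand: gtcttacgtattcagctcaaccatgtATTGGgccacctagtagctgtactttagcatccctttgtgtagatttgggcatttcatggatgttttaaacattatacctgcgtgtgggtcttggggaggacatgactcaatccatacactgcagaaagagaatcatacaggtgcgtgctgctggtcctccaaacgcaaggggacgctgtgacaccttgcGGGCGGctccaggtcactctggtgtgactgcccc
Rhbdl2, chr4:123681418-123681667, plus strand: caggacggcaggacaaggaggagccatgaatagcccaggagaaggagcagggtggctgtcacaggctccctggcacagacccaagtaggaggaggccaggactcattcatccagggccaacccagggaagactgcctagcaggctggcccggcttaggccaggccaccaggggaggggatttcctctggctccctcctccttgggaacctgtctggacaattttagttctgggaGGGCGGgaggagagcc
The E-box CACGTG, the site of MYC and Max, was in 0 of the 10 windows and in 6.26% of 21770 protein-coding windows of this length. TATAAA was also in 0 of the 10, against 11.9%. CCAAT was in 5 of the 9 protein-coding windows of the set and in 36.5% of all, and GGGCGG in 4 of 9 and in 36.3% of all. Mycl had none of these 4 motifs and Rhbdl2 had GGGCGG, so no motif of the 4 divided the genes that differed from the one that did not. A missing match says only that these letters are not in this window.

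Mycl was several-fold lower in both RPC tumors. The summed tumor-like nuclei had 53.7 CPM in RP1 and 71.6 in RP2, against 6.48 in RPC1 and 10.4 in RPC2, from 1430, 1939, 353 and 478 transcripts. The groups did not overlap, with a mean of 62.6 ± 12.7 in RP and 8.46 ± 2.80 in RPC (SD, n = 2 each), a log2 fold change of -2.89 (SE 0.31). Of the 10 genes, 9 were lower in both RPC animals than in both RP animals, and 8 of them by at least 2-fold. Without nuclei above 4 times the median depth, 8 and not 9 were lower in both. Over all 20080 genes the shares were 25.6% and 4.74%, but since the genes were chosen on this contrast nothing is read from the comparison. edgeR called none of them, as it called 0% of all genes.

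The 5 close neighbours with the same pattern were more abundant than Mycl. Cap1 had 587 CPM in RP1 and 435 in RP2, against 42.2 in RPC1 and 53.8 in RPC2. Trit1 had 581, 409, 48.1 and 72.8 CPM in the same order of animals. Pabpc4 had 540, 346, 23.1 and 35.5 CPM. All 3 genes were higher in RP1 than in RP2, and lowest in RPC1. RPC against RP gave a log2 fold change of -3.41 for Cap1, -3.03 for Trit1 and -3.92 for Pabpc4, the largest of the 10. Ppt1 had 245, 177, 29.6 and 30.8 CPM (log2 fold change -2.81), and Ppie had 188, 99.6, 16.3 and 22.3 CPM (-2.89). Mycl differed from these 5 in the order of the RP animals: it was the only one of the 6 with a higher level in RP2 than in RP1. CPM values are not divided by gene length, so differences in level between genes are partly differences in length.

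Bmp8b, Macf1 and Rhbdl2 did not share this pattern, and Gm12940 did at a distance. Bmp8b had 26.9 CPM in RP1 and 46.8 in RP2, against 24.6 in RPC1 and 16.2 in RPC2. RP1 lay just above RPC1, closer to it than the RPC animals lay to each other (log2 fold change -0.85, SE 0.35). Macf1 had 594, 1570, 458 and 510 CPM, so it was high in RP2 alone, at 3.24 times the RPC mean, while RP1 lay at 1.23 times. Rhbdl2 had 37.9, 35.7, 41.1 and 37.3 CPM, the genotypes overlapped, and its log2 fold change was 0.09 (SE 0.15). Gm12940 had 111, 91.1, 23.0 and 27.5 CPM (log2 fold change -2.00, SE 0.18), with no overlap although it lies 4.04 Mb away.

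**Figure D1:**
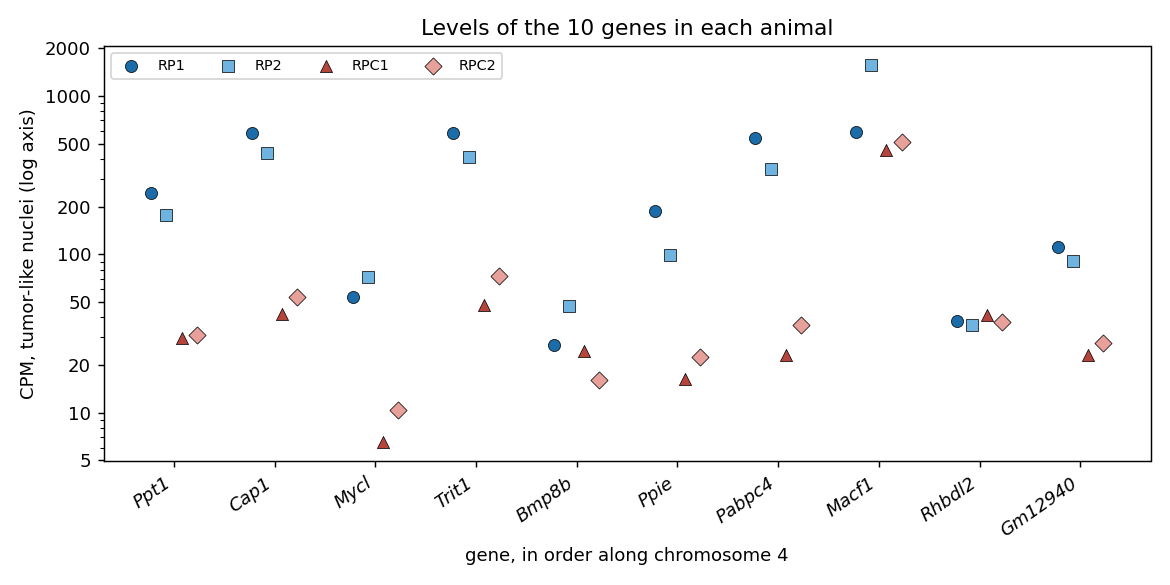
Points give the level of each of the 10 genes in the tumor-like nuclei of the RP and the RPC animals (CPM, log axis), with the genes in their order along chromosome 4. Ppt1, Cap1, Mycl, Trit1, Ppie, Pabpc4 and Gm12940 sit well apart between the genotypes, Macf1 stands out only in RP2 (1570 CPM), and the 4 points of Rhbdl2 lie between 35.7 and 41.1 CPM.

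Mycl and Cap1 kept RP above RPC in separate parts of the same animal. Over the barcoding wells of an animal (2 in RP1, RP2 and RPC2, 3 in RPC1) and without TMM scaling, Mycl was 44.5 to 56.8 CPM in RP1 and 64.7 to 78.5 in RP2, against 6.56 to 6.83 in RPC1 and 9.48 to 11.5 in RPC2. Over the 7 sublibraries, Cap1 was 514 to 672 CPM in RP1 and 397 to 473 in RP2, against 39.0 to 49.0 in RPC1 and 49.96 to 58.3 in RPC2. Bmp8b did not: its wells had 18.2 and 31.3 CPM in RP1 and 24.2 to 26.1 in RPC1. Pabpc4 was 416 and 594 CPM in the wells of RP1. These repeats share the tumor and are technical. Depth moved with the genotype: a median tumor-like nucleus held 2351 transcripts in RP1 and 2288 in RP2, against 3344 in RPC1 and 2871 in RPC2, and the part of depth in these differences was not tested beyond the scaling and the fixed-depth counts given here.

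Along the chromosome, the largest differences of abundant genes within 5 Mb of Mycl that both RP tumors shared lay between Ppt1 and Pabpc4, followed by Gm12940. Outward from Mycl, the tested genes with both RPC animals below both RP animals and at least 2-fold lower formed a run of 10 genes, from Rlf to Trit1 over 1.95 Mb, of which 4 are among the genes followed here. The run stopped on one side at Zmpste24, where RP1 (42.3 CPM) lay just under RPC2 (42.6 CPM), and on the other at Gm12923, a gene under 0.5 CPM in every animal with a log2 fold change of -0.98. With the limit at -0.5 the run held 21 genes and reached Macf1, with Gm12925 as the next gene. Over genes whose average log2 CPM was 3 or more, which leaves out Gm12923, the run also ended at Trit1, with Bmp8b (log2 fold change -0.85) as the next gene. Ppie and Pabpc4, beyond Bmp8b, were lower in RPC by more than the limit but lay outside the run.

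Genes between and beside the named ones went the same way. Of 18 other tested genes that start within 1 Mb of Mycl, 15 were lower in both RPC animals and 11 of these at least 2-fold. Mfsd2a, a lipid transporter 48.8 kb before Mycl, had 4.54, 5.57, 0.46 and 0.70 CPM in the order RP1, RP2, RPC1, RPC2. Bmp8a had 4.88, 10.2, 1.08 and 1.59 CPM, and the Notch effector gene Heyl had 4.92, 7.90, 2.39 and 1.29. Hpcal4, Oxct2b, Gm12876, Gm57091, Gm57113, Gm17244, Gm12923 and 4933421A08Rik were lower in both RPC animals too, at no more than 2.18 CPM in any animal. Beyond Macf1 the levels were close: Akirin1 had 34.0, 37.8, 24.3 and 33.4 CPM, and the log2 fold changes of Ndufs5, Akirin1, Gm12905, Mycbp, Rragc and Gm12925 lay between -0.44 and -0.18.

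RP2 differed from RP1 in how far the high stretch reached. Smap2, 2.06 Mb before Mycl, had 138 CPM in RP1 but 630 in RP2, against 88.5 in RPC1 and 123 in RPC2. Zmpste24 had 230 CPM in RP2 and 35.2 to 42.6 in the other 3 animals. Rlf, a zinc finger gene that lies in the run, had 273, 583, 173 and 193 CPM. 9530002B09Rik, 306 kb before Mycl, had 58.4 CPM in RP2 and 0.11 to 0.41 in the others. In RP2 alone the stretch therefore covered Smap2 to Macf1, and in RP1 its abundant high genes were Ppt1, Cap1, Mycl, Trit1, Ppie and Pabpc4, with Rlf at 1.49 times and Bmp8b at 1.32 times the RPC mean. Each RP pattern rests on 1 animal.

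**Figure D2:**
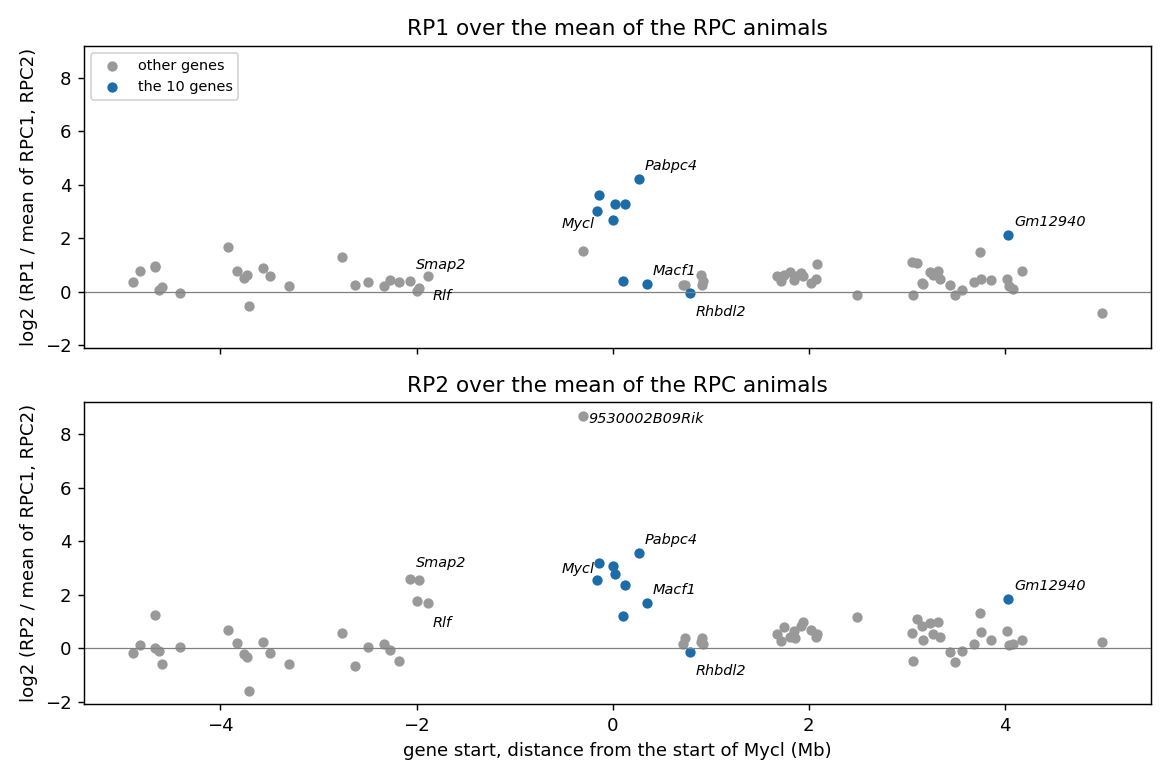
Each point is a gene whose average log2 CPM was 3 or more, by the distance of its start from that of Mycl (Mb) and the log2 ratio of its level in RP1 (top) or RP2 (bottom) to the mean of RPC1 and RPC2. The highest points of RP1 lie between Ppt1 and Pabpc4 and those of RP2 between Smap2 and Macf1, Gm12940 stands at 4.38 and 3.602 times the RPC mean, and Rhbdl2 is at 0.967 and 0.910 times the RPC mean.

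A smaller difference was seen up to 20 Mb beyond Mycl, and not farther out. Over the 141 tested genes within 5 Mb of Mycl the median log2 fold change was -0.56. It was -2.85 over the 10 genes and -0.53 over the 131 others, against -0.01 over all tested genes. The 53 other genes 1 to 5 Mb before Mycl had a median of -0.21, and the 60 genes 1 to 5 Mb beyond it -0.56. The 156 genes 5 to 20 Mb before Mycl had a median of -0.04. The median was -0.47 at 5 to 10 Mb beyond Mycl (96 genes), -0.36 at 10 to 20 Mb (180 genes) and 0.04 farther out (172 genes). Gm12940 lies inside this region, and its log2 fold change of -2.00 was well beyond the median of the genes around it. Shifts were not limited to chromosome 4: its median was -0.12 over 1207 tested genes, and that of chromosome 19 was -0.25 over 668. DNA copy number was not measured in the files used here.

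Within each RP animal, the tumor-like nuclei were not alike. Their clusters fell into a kind with high and a kind with low levels of the stretch, although none of its genes had been used to form them. In RP1, Cap1 was 1005 and 1451 CPM in 2 clusters and 137 to 194 CPM in the other 5. In RP2 it was 465 to 697 CPM in 5 clusters and 113 to 148 CPM in the other 4. The clusters high in Cap1 (above the level of the whole animal, a split chosen after the values were seen) held 2093 of 7087 nuclei in RP1 (29.5%) and 4923 of 7176 in RP2 (68.6%). In the RPC animals no such break was seen, with Cap1 at 39.0 to 55.5 CPM over 7 clusters of RPC1 and 40.4 to 74.4 CPM over 8 clusters of RPC2.

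The clusters were split by Cap1, so the other 9 genes show what moved with it. In RP1, Mycl was 82.3 CPM in the Cap1-high clusters and 27.5 in the rest, and in RP2 85.3 and 30.8. Trit1 was 1076 against 149 CPM in RP1 and 505 against 124 in RP2. Pabpc4 was 1003 against 137 and 423 against 118 CPM. Ppt1, Ppie and Bmp8b were higher in the same clusters, by 7.64, 7.88 and 2.54 times in RP1 and by 4.44, 3.79 and 2.85 times in RP2. Macf1 again parted the animals: it was 603 against 551 CPM in RP1 and 1872 against 671 in RP2. Gm12940 differed little, at 1.15 and 1.53 times.

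Rhbdl2 went the other way. It was 21.4 CPM in the Cap1-high clusters of RP1 and 48.9 in the rest, and 27.8 and 56.4 in RP2. Among all genes of at least 8 CPM, its ratio ranked 9901 of 9971 in RP1 and 9899 of 10034 in RP2. The similar levels of Rhbdl2 in the whole RP and RPC tumors thus hid a 2.29-fold and a 2.02-fold difference between kinds of nuclei within the RP animals. In the clusters with the lowest levels, Rhbdl2 was 10.2 CPM in RP1 and 8.26 CPM in RP2, from only 21 and 13 transcripts. These were the clusters with the highest Cap1 of each animal.

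The background of this split was broad. Of all other genes of at least 8 CPM, 2.87% (286 of 9970) were at least 2-fold higher in the Cap1-high clusters of RP1 and 3.52% (353 of 10033) in RP2, since clusters differ in many genes. Within 5 Mb of Mycl, 8 of 74 genes were at least 2-fold higher in RP1 and 19 of 74 in RP2. In RP1, 6 of these 8 were Ppt1, Mycl, Trit1, Bmp8b, Ppie and Pabpc4, and the others were Grik3 and Csmd2, 2.49 and 4.99 Mb beyond Mycl. In RP2, Smap2 (782 against 182 CPM), Zmpste24 (284 against 68.7), Rlf (690 against 263) and 9530002B09Rik (75.6 against 8.35) were among the 19. In RP1, Smap2, Zmpste24 and Rlf lay at 0.91, 1.12 and 0.98 times. The 19 genes of RP2 also included Cdca8 (8.92 times), Grik3 (5.50), Cdc20 (3.89), Oscp1 (2.21), 9930104L06Rik (2.08) and Zmym1 (2.04), which lie outside the range from Smap2 to Macf1. The differences between clusters and those against RPC were not alike for every gene: in RP1, Gm12940 was 1.15 times between clusters and 4.38 times the RPC mean, and Bmp8b was 2.54 and 1.32 times.

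The ratios of Mycl and Rhbdl2 kept their direction over technical repeats. The clusters were those formed on all tumor-like nuclei of the animal and were not formed again per repeat. Over the 7 sublibraries, the ratio of Mycl between the clusters lay between 2.39 and 3.56 in RP1 and between 2.47 and 3.19 in RP2, and that of Rhbdl2 between 0.33 and 0.55 and between 0.40 and 0.61. Depth differed too, with a median of 3197 transcripts in the Cap1-high nuclei of RP1 and 2158 in the rest, and of 2339 and 2209 in RP2, and its part was not tested. By cluster, the Cap1-high ones had median depths of 1830 and 5218 transcripts in RP1 and of 1754 to 6838 in RP2, and the others 1753 to 3495 and 2167 to 3153. As a description over the 7 clusters of at least 100 nuclei, the log2 levels of Mycl and Cap1 had a Pearson correlation of 0.99 in RP1 and 0.95 in RP2, and those of Rhbdl2 and Cap1 of -0.93 and -0.65. In the RPC animals, Mycl and Cap1 had 0.71 (RPC1, 7 clusters) and -0.07 (RPC2, 8 clusters). With Cap1, Ppt1, Trit1, Ppie and Pabpc4 had 0.79, 0.73, 0.002 and -0.42 in RPC1. In RPC2 these 4 genes had 0.33, 0.65, 0.74 and 0.85. Some of the neighbours thus moved with Cap1 in the RPC animals too, over a narrower range of Cap1. Rhbdl2 and Cap1 had -0.41 in RPC1 and -0.61 in RPC2, so an opposite course of these 2 genes was not particular to the RP animals. The points of an animal share its libraries and its tumor.

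**Figure D3:**
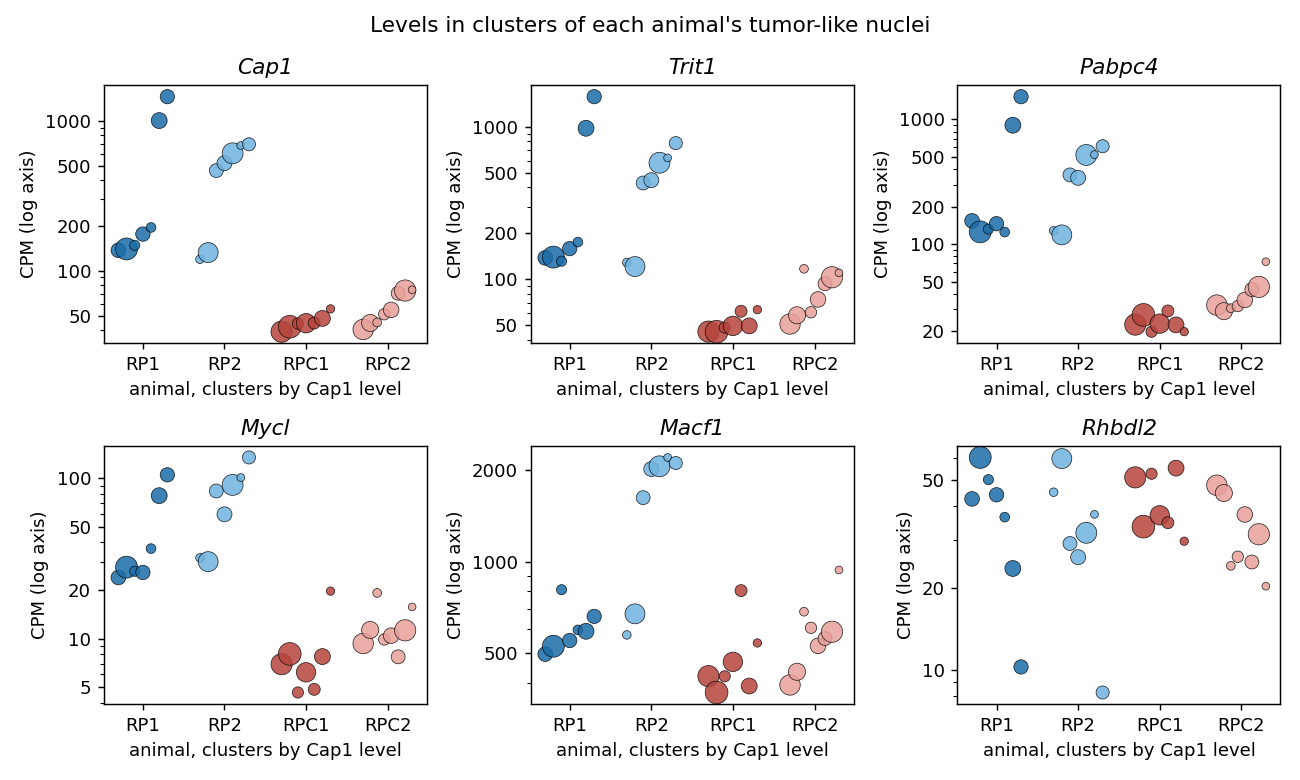
Points are clusters of at least 100 tumor-like nuclei of 1 animal (area grows with the number of nuclei), ordered within the animal by Cap1, with the level of 6 genes as CPM on log axes. RP1 and RP2 have clusters at 2 levels of Cap1, Trit1, Pabpc4 and Mycl, and Macf1 splits only in RP2. The RPC animals show no such break in Cap1, but Mycl spans 4.63 to 19.8 CPM in RPC1 and 7.72 to 19.3 CPM in RPC2. Rhbdl2 is lowest in RP1 and RP2 (10.2 and 8.26 CPM, from 21 and 13 transcripts) where Cap1 is highest.

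**Figure D4:**
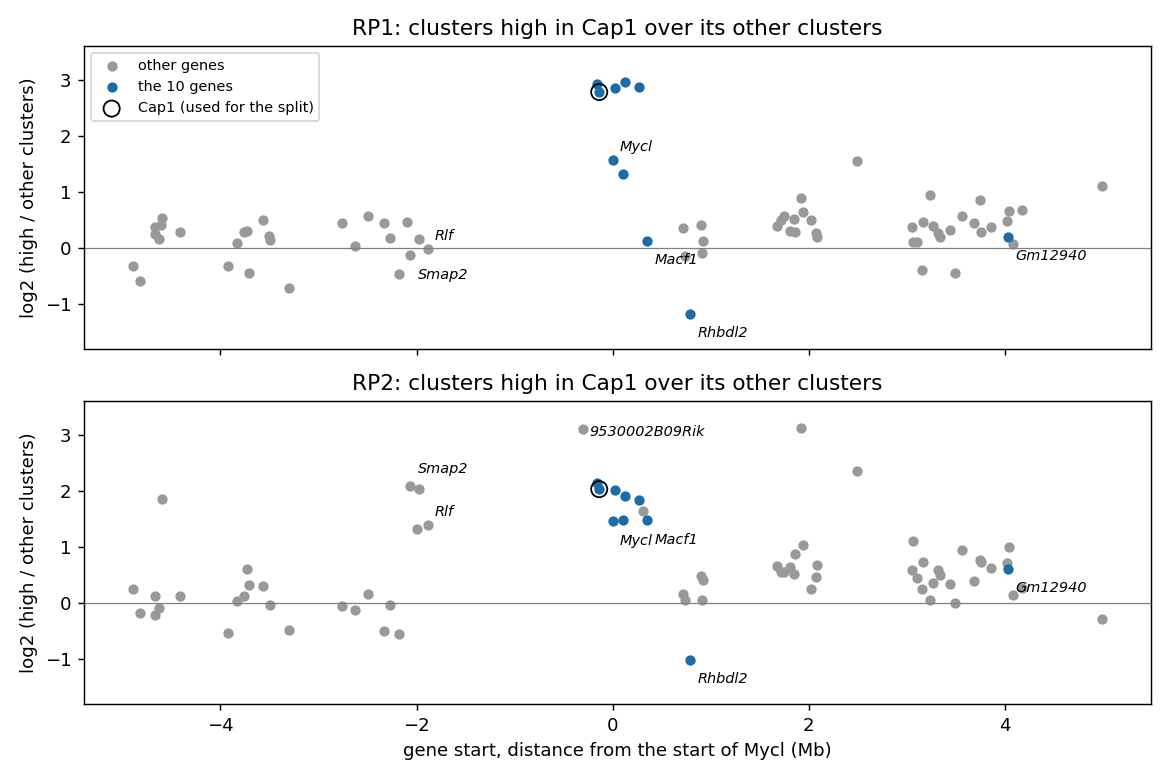
Each point is a gene of at least 8 CPM, by its distance from the start of Mycl (Mb) and the log2 ratio of its level in the Cap1-high clusters to the other clusters of RP1 (top) or RP2 (bottom); the ringed point is Cap1, which made the split. High points lie between Ppt1 and Pabpc4 in RP1 and between Smap2 and Macf1 in RP2, with single ones elsewhere (Grik3 at 3.14 and 5.50 times, Cdca8 at 8.92 times in RP2), and Rhbdl2 lies lowest of the 10 genes in both.

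The low clusters of the RP animals were still above the RPC tumors for most of the stretch. Mycl was 3.19 times the mean of the RPC animals in the low clusters of RP1 and 3.58 times in those of RP2. Pabpc4 was 4.60 and 3.97 times, Cap1 3.21 and 2.68 times, Trit1 2.43 and 2.02 times and Ppt1 1.95 and 1.61 times the RPC mean. Bmp8b was at 0.74 and 0.94 times, and Macf1 at 1.12 and 1.36 times. Gm12940, which differed little between the clusters, was at 3.89 and 2.52 times.

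RNA of the tumor markers was not confined to the tumor-like nuclei. In nuclei named for other cell types (classes of at least 30 nuclei), the median of the 14 tumor markers lay at 42.1 to 83.5% (RP1), 43.6 to 83.2% (RP2), 57.8 to 82.6% (RPC1) and 25.03 to 90.1% (RPC2) of the tumor-like level. The genes of the stretch were found in the same nuclei: Cap1 was 313 to 679 CPM over 7 such classes of RP1 and 151 to 414 CPM over 9 of RP2, but 45.7 to 95.8 CPM over 7 of RPC1 and 50.7 to 116 CPM over 8 of RPC2. Endothelial-like nuclei of RP1 had 455 CPM of Cap1 and 41.8 CPM of Mycl, above the low tumor-like clusters of this animal (137 to 194 and 24.1 to 36.4 CPM). Some clusters behind these classes were deep, at 6.15 (alveolar type 2), 4.16 (club) and 3.34 (macrophage or monocyte) times the median depth. Whether the tumor markers in these classes came from carried-over RNA or from doublets was not tested. The part of carried-over RNA in the levels of the low clusters was not tested either.

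In unnamed, shallow nuclei (medians of 884 to 1273 transcripts) Mycl was again higher in both RP animals. It was 146 CPM in RP1 and 200 in RP2, against 14.8 in RPC1 and 37.0 in RPC2, from 100, 141, 10 and 28 transcripts. Pabpc4 was 1052, 710, 47.4 and 76.6 CPM. Bmp8b was 137, 29.9, 14.8 and 13.2 CPM, with RP1 above RP2 and not below it as in the tumor-like nuclei. Rhbdl2 was 11.4 to 19.3 CPM in the 4 animals. These nuclei also had more of the tumor markers, whose median was 127 to 173% of the tumor-like level.

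At a fixed depth of 1000 transcripts per nucleus, a Mycl transcript was found in 4.18% of the tumor-like nuclei of RP1 (264 of 6323, exact binomial 95% interval 3.70 to 4.70) and in 6.58% of RP2 (425 of 6459, 5.99 to 7.21). It was found in 0.71% of RPC1 (64 of 9033, 0.55 to 0.90) and in 1.11% of RPC2 (91 of 8189, 0.90 to 1.36). Every RP interval lay above every RPC interval, and the intervals cover counting error only. Shallower nuclei were left out, 764 and 717 in the RP animals, 136 and 380 in the RPC animals. Without thinning, the mean share of the RPC animals lay 12.5 points below that of the RP animals, and 4.47 points at the fixed depth. Macrophage- or monocyte-like nuclei were taken as a background class, and that they lack Mycl was assumed. Their shares were 0.69% (1 of 144), 6.03% (17 of 282), 0 of 186, which allows up to 1.61%, and 1.24% (2 of 161) in the order RP1, RP2, RPC1, RPC2. The class medians were 3083, 2825, 4905 and 3336 transcripts. The exact intervals of these shares (RP1 0.018 to 3.81%, RP2 3.55 to 9.48%, RPC2 0.15 to 4.42%) overlapped those of the tumor-like nuclei, and the limit in RPC1 lay above its tumor-like share. In RP1 the overlap was narrow, from 3.70 to 3.81%. With 144 to 282 nuclei per animal, this comparison can neither separate the tumor-like share from background nor show that they are equal.

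The abundant neighbours were seen in more nuclei. Cap1 was detected in 24.3% and 29.6% of the RP1 and RP2 nuclei and in 3.87% and 5.43% of the RPC1 and RPC2 nuclei. Pabpc4 was detected in 21.0%, 24.4%, 2.55% and 3.42%. Rhbdl2 was detected in 3.84%, 3.27%, 3.71% and 3.27%, with overlapping intervals. The share for Macf1 was 42.3% in RP1 and 65.0% in RP2, against 34.7% in RPC1 and 38.5% in RPC2.

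Nuclei with a Mycl transcript more often held a neighbour as well, in the RP animals. Any of the other 9 genes was found in 83.3% of the Mycl-positive nuclei of RP1 (95% interval 78.3 to 87.6) and in 73.3% of its other nuclei (72.1 to 74.4). In RP2 the shares were 91.5% (88.5 to 94.0) and 82.2% (81.2 to 83.2). In RPC1 they were 32 of 64 (37.2 to 62.8%) and 48.5% (47.4 to 49.5), and in RPC2 50.5% (39.9 to 61.2) and 53.8% (52.7 to 54.9). The intervals were apart in both RP animals and overlapped in both RPC animals, where only 64 and 91 nuclei held Mycl. Much of the share came from Macf1, which is in many nuclei of every animal.

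With the 5 genes Ppt1, Cap1, Trit1, Ppie and Pabpc4 alone, a set chosen after the values were seen, the contrast was wider. At least 1 of them was in 68.6% of the Mycl-positive and 47.1% of the Mycl-negative nuclei of RP1, and in 77.2% and 57.2% in RP2. In RPC1 the shares were 21.9% and 15.03%, and in RPC2 15.4% and 20.1%. By gene, Cap1 was in 46.6% against 23.3% of the nuclei of RP1 and 45.9% against 28.5% in RP2. Macf1 was in 38.6% against 42.4% in RP1 and in 75.8% against 64.3% in RP2, so the difference had opposite signs in these animals. Rhbdl2 was in 2.65% against 3.90% and in 1.88% against 3.36%.

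**Figure D5:**
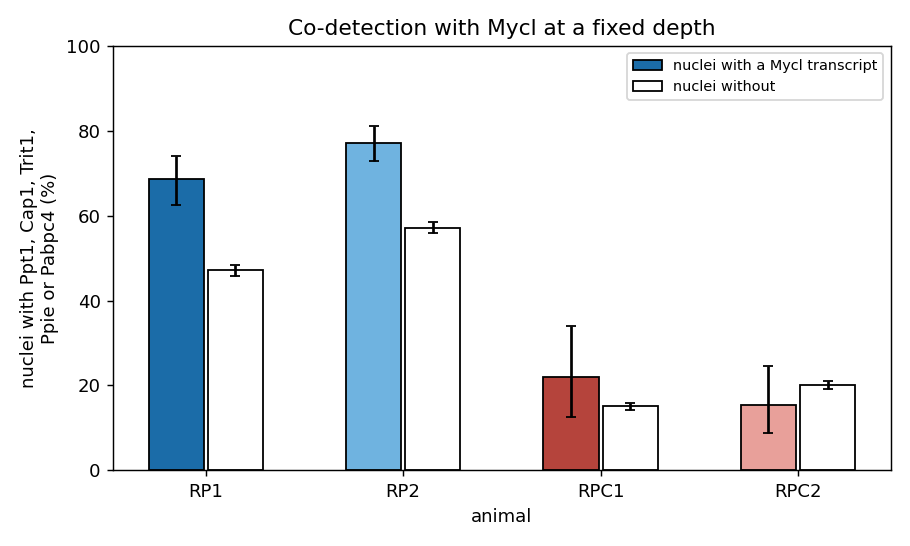
Bars give the percentage of tumor-like nuclei in which a transcript was found for Ppt1, Cap1, Trit1, Ppie or Pabpc4 among nuclei with (filled) and without (white) a Mycl transcript, at 1000 transcripts per nucleus, with exact binomial 95% intervals. The filled bar is the higher one in RP1 (68.6 against 47.1%) and RP2 (77.2 against 57.2%), and the intervals overlap in RPC1 and RPC2.

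Pairs of genes gave the same picture. Over the 15 pairs of Mycl, Ppt1, Cap1, Trit1, Ppie and Pabpc4, the phi coefficient of detection across nuclei had a median of 0.29 in RP1 (0.09 to 0.35) and 0.13 in RP2 (0.04 to 0.22). It was 0.0031 in RPC1 and -0.0021 in RPC2. Within single clusters, as a median over 7 clusters of each animal and then over the pairs, phi was 0.066 in RP1 and 0.079 in RP2. In RP1 most of these clusters had low levels of the genes. How much of the pairing lay between clusters was not tested. The nuclei of an animal share its libraries, and phi depends on how often the genes are seen.

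The number of transcripts of the 5 neighbours per nucleus was spread widely in the RP animals. At 1000 transcripts, 52.0% of the RP1 nuclei held none of the 5 genes and 17.5% held at least 3 transcripts, while 9.76% held at least 5. In RP2 these shares were 41.5%, 20.5% and 7.71%. In RPC1 and RPC2, 84.9% and 79.9% held none and 0.17% and 0.22% held at least 3. The variance divided by the mean, which is 1 for counting error alone, was 11.4 in RP1 and 3.04 in RP2, against 1.06 in RPC1 and 1.03 in RPC2. In the cluster of RP1 with the highest Cap1 the mean was 5.51 transcripts and 11.1% of nuclei held none, against 0.44 transcripts and 68.1% in its largest cluster.

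The genes whose levels over the 4 animals were most like those of Mycl included its neighbours. By the distance of log2 CPM centred over the animals, among 10163 genes whose average log2 CPM was 3 or more, the first 10 were Slc15a2, Trit1, Ppt1, Npas3, Cap1, Prr16, Ppie, Scarna2, Gm12940 and Gm42047. Of these, 5 are on chromosome 4, and all 5 belong to the genes followed here. The nearest was Slc15a2, a peptide transporter of chromosome 16, with 43.0, 51.6, 4.87 and 11.6 CPM. Pabpc4 ranked 22nd, Macf1 266th and Rhbdl2 5892nd. With 4 animals in 2 groups, likeness mostly reflects the difference between the genotypes.

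The other MYC genes were scarce in these tumors. Myc had 0.68, 1.33, 0.64 and 1.18 CPM in the order RP1, RP2, RPC1, RPC2, and Mycn 2.40, 1.29, 2.13 and 1.94. Max, the shared partner, had 44.2, 44.2, 39.6 and 37.3 CPM. Myc and Mycn overlapped between the genotypes, and no gene of the family other than Mycl reached 3 CPM.

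In the wider MYC network (20 genes, all tested), edgeR called 0 genes, 5 had an unadjusted p under 0.05, all lower in RPC, and DESeq2 called 0. The median log2 fold change was -0.22, and 12 of 20 genes were lower in both RPC animals. Over all 20080 tested genes, 25.6% were lower in both, and 1547 had an unadjusted p under 0.05 and were lower. The largest differences were those of Mxi1, a competitor for Max (129, 97.8, 39.9 and 75.1 CPM in the order RP1, RP2, RPC1, RPC2, log2 fold change -0.98, edgeR adjusted p 0.305), Zbtb17, which encodes the MYC partner Miz1 (43.7, 38.4, 17.4 and 27.8 CPM, -0.86, adjusted p 0.291), and Ruvbl2, a helicase of chromatin complexes (24.7, 23.7, 14.2 and 16.5 CPM, -0.66, adjusted p 0.285). Zbtb17 lies on chromosome 4, 18.3 Mb beyond Mycl, in the range of 10 to 20 Mb whose median was -0.36. Mycbp of this list lies 0.91 Mb beyond Mycl. These 2 genes are thus not separate from the region by position.

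Of 30 textbook MYC targets, edgeR called 0, 4 had an unadjusted p under 0.05, all lower in RPC, and DESeq2 called 1, also lower. Their median log2 fold change was -0.29, with 16 of 30 lower in both RPC animals, against -0.01 and 25.6% over all tested genes. Fbl, an enzyme of ribosomal RNA methylation, had 12.4, 18.5, 7.38 and 6.53 CPM (log2 fold change -1.15, adjusted p 0.273). Cad, which starts pyrimidine synthesis, had 49.2, 49.5, 31.5 and 28.3 CPM (-0.72, adjusted p 0.273). Utp20, a ribosome assembly factor, went the other way with 58.9, 122, 169 and 163 CPM (0.88, adjusted p 0.331). The differences were small beside that of Mycl. Mrto4 (log2 fold change -0.82), among the 4 with an unadjusted p under 0.05, lies on chromosome 4, 16.2 Mb beyond Mycl. It is thus not separate from the region by position.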

How the data were processed

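Nuclei of 4 tumors were barcoded with the Evercode WT Mega kit. Per the study's methods and the labels, the authors used the PARSE pipeline to align reads to GRCm39 (Ensembl genes) and to assign nuclei to animals. What was deposited are raw counts of transcripts per nucleus and gene, 1 matrix per animal; 8 columns of the table of nuclei were not used. Whether the counting used strand was not given in the sources used here.

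A nucleus was kept with 300 or more counts, no more than 10% of them mitochondrial, and up to 12000 genes. Clusters (Leiden, leidenalg 0.10.2, resolution 0.4) were named by marker lists; tumor-like nuclei were then clustered again in each animal. The names are reconstructions. No doublet caller was used; leaving out nuclei above 4 times the median depth was an alternative. For each animal the tumor-like nuclei were added up, and genotypes were compared by edgeR 4.0.16's quasi-likelihood test (R 4.3.3, TMM, filterByExpr, two-sided, Benjamini-Hochberg, no covariate). DESeq2 1.42.0, the tool of the study, was an alternative. CPM of whole tumor-like sums are TMM-scaled, and those of clusters, classes, wells and sublibraries are not. Detection was counted after drawing 1000 transcripts per nucleus without replacement. The genes named besides the 10 were those in or next to the run, within 1 Mb of Mycl, the 10 most like Mycl, Myc, Mycn, Max, the targeted genes, and the 3 largest differences of each MYC list among genes whose average log2 CPM was 3 or more with animals apart. Smap2, Grik3, Csmd2, Cdca8, Cdc20, Oscp1, 9930104L06Rik, Sfpq, Zmym1 and Mrto4 were chosen after their values were seen. The members, lists and tests were chosen with earlier results of these data known. The labels do not pair the animals across genotypes, so p-values measure the spread between these animals.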

Additional observations from a re-analysis of the deposited data

How the results depend on the processing

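The log2 fold changes of the 10 genes kept their sign under all 13 alternatives: -3.26 to -2.58 for Mycl, -4.25 to -3.56 for Pabpc4, -3.61 to -3.18 for Cap1 and 0.03 to 0.17 for Rhbdl2. Ppt1 and Ppie moved to -2.55 and -2.37 without RP1. Macf1 depended on RP2, with -0.29 without it and -1.16 with it. The number of genes called was 636 with DESeq2 and 2 without a filter on low counts, against 0. The run around Mycl held 10 genes; it held 4 without a filter and 4 with DESeq2, which also tests genes of few counts, 21 with the limit at -0.5, 6 over genes whose average log2 CPM was 3 or more (added after the data were seen), and 11 to 24 when 1 animal was left out, the most without RP1. The median of the window was -1.04 within 2 Mb, against -0.56 within 5 Mb. The mean difference in co-detection with any of the other 9 genes was 9.68 points in RP; it was 15.9 at 500 transcripts, 4.58 at 2000, 5.85 without thinning and 10.6 without the deepest nuclei. In RPC it was -0.86, and it reversed to 5.08 at 500 transcripts, 1.11 at 2000 and 9.31 without thinning; leaving out 1 animal gave -3.24 to 1.52, the positive value without RPC2. The Mycl share of RPC minus RP was -4.47 points, -2.38 at 500 transcripts, -8.84 at 2000 and -12.5 without thinning, since shares grow with depth. Other causes of these shifts were not tested. The 4 animals share only a replicate number; the replicate block left 0 genes called, 0 in the MYC network list, and a window median of -0.56, and changed no other call. Leaving out nuclei in clusters led by another animal was also added after the data were seen and changed no direction. With 2 animals per genotype, the spread between animals rests on few values.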

Other observations

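Outside the genes followed here, Gm30835 and Gm45455 were among the 12 genes with the largest ratio between the Cap1-high and the other clusters in both RP animals; both were chosen after their values were seen. Gm30835, on chromosome 5, was 683 against 40.9 CPM in RP1 and 664 against 76.0 CPM in RP2. Gm45455, which has no position in the table used here, was 118 against 6.01 CPM and 43.5 against 4.87 CPM. In RP2 the Cap1-high clusters also held more of the mitosis genes Iqgap3 (66.8 against 6.96 CPM) and Cdca8 (129 against 14.5 CPM), the latter 1.92 Mb beyond Mycl. No test was made on these genes.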
